A study of Mus musculus with 21 samples.

Results

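The 37 mitochondrially encoded genes were taken from the RNA-seq table of mouse germ cells as every gene whose symbol starts with mt-, and they are 37 of 37620 genes in the table. They comprise 13 protein-coding genes, 2 rRNA genes and 22 tRNA genes. All 12 libraries come from C57BL/6J (B6) males at 12 dpp (days post-partum), an age at which germ cells are enriched for early stages of meiosis. The cells were enriched from testes by digestion with collagenase and trypsin and are labelled spermatocytes. The labels name 4 samples by number (186wt, 343wt, 444wt, 456wt), of which 3 libraries each were sequenced, and give no treatment, mutation or other factor that separates them. Values of a number are the average of its 3 libraries, and mean ± SD is over the 4 numbers (n = 4). The paper describes RNA from 4 replicates of B6 germ cells, so the 4 numbers are read as replicates of 1 condition. The labels do not say whether the 3 libraries of a number share 1 RNA preparation. The p-values therefore measure the spread between libraries, which can be repeat libraries of 1 preparation, and the comparison is between these 4 samples. The 9 samples of the other assays of the study were not analysed here.

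The values are FPKM, the fragments assigned to a gene scaled to its length and to the depth of the library. They allow a comparison of levels between genes of different length, except for genes about as short as a fragment. For these the length used by RSEM, the program that gave the FPKM, depends strongly on its fragment-length setting. From the steps between low values, the depth was estimated at 12.9 to 17.6 M (mega) fragments per library. All 14 meiotic marker genes had a mean of at least 1 FPKM, and so did all 9 markers of Sertoli cells, the somatic cells that nurse the germ cells. The summed level of the Sertoli markers was 4677, 4833, 2698 and 2879 FPKM in 186wt, 343wt, 444wt and 456wt, and that of the meiotic markers was 718, 519.9, 851 and 705 FPKM in the same order. The 6 markers of peritubular myoid cells, the contractile cells around the tubules, summed to 553, 261, 695 and 1161 FPKM. Markers of several cell types were thus present, and their sums differed between numbers.

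The mitochondrial genome is a small circular chromosome that is present in many copies per cell. It is transcribed from both strands into long RNAs, from which the tRNAs are cut out. The pieces between them become mRNAs and rRNAs, most of which receive short poly(A) tails. The proteins it encodes are all membrane subunits of the respiratory chain and the ATP synthase, and the remaining subunits and the proteins of the machinery for its expression are encoded in the nucleus. In the testis, mitochondria change shape and position as germ cells enter meiosis, and several nuclear subunits have forms used in germ cells.

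On NCBI build 37 the mitochondrial chromosome has 16299 bases. Its plus strand carries both rRNA genes, 12 of the protein-coding genes and 14 tRNA genes, whereas mt-Nd6 and 8 tRNA genes lie on the minus strand. Of its 36 pairs of neighbouring genes, 9 overlap, 12 adjoin and 15 are separated by at most 32 bases. Reads of an overlap can belong to either gene, and a strand setting for the read counting is not given in the sources used here. Of the 9 overlaps, 43 bases are shared by mt-Atp8 and mt-Atp6, 14 by mt-Nd5 and mt-Nd6, which face each other on opposite strands, and 7 by mt-Nd4l and mt-Nd4. The other overlaps are between 1 and 3 bases long. The junctions are shown because their reads limit how far the values of the paired genes are separate measurements. Sequences are from the plus strand of NCBI build 37, with the bases annotated to both genes in capitals, for chrM:7917-7979, chrM:10147-10193, chrM:13532-13585 and chrM:6850-6892:
mt-Atp8 to mt-Atp6: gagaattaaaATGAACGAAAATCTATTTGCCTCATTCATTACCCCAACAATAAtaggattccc
mt-Nd4l to mt-Nd4: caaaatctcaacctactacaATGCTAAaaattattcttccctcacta
mt-Nd5 to mt-Nd6: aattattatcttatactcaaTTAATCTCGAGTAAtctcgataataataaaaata
mt-Co1 to mt-Ts1: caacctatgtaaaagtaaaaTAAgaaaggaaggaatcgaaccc

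In the first 2 junctions the capitals begin with ATG, the start codon of the downstream gene, and end with TAA, the stop codon of the upstream one. Those of mt-Nd5 and mt-Nd6 end with TAA, the stop codon of mt-Nd5, and begin with TTA, which read on the minus strand is the stop codon of mt-Nd6. In the last, TAA is the stop codon of mt-Co1, and the same bases are the end of mt-Ts1 on the other strand. Of the 13 protein-coding genes, 9 begin with ATG and 10 end with a whole stop codon. The annotated genes of mt-Co3, mt-Nd4 and mt-Cytb end with a single T, which polyadenylation is known to complete to a stop codon.

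The mitochondrially encoded genes had a share of all FPKM of 11.8%, 10.6%, 10.1% and 9.02% in 186wt, 343wt, 444wt and 456wt, with a mean of 10.4 ± 1.18% (SD, n = 4). FPKM is per length and these genes are short. As a share of fragments, computed from FPKM and annotated length, they came to 4.47 ± 0.503% (SD, n = 4). This share is an upper estimate, since RSEM, which gave the FPKM, divides by lengths reduced by the fragment length. The reduction weighs most on short genes. The protein-coding genes made up nearly all of their FPKM, and the 2 rRNA genes held 0.633 ± 0.0636% of the members' FPKM. The share of FPKM lay between 11.8% and 11.9% in the 3 libraries of 186wt and between 8.99% and 9.04% in those of 456wt, and the libraries of the 4 numbers did not overlap. In bulk samples, fewer cells of a type and less RNA per cell cannot be told apart.

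**Figure D1:**
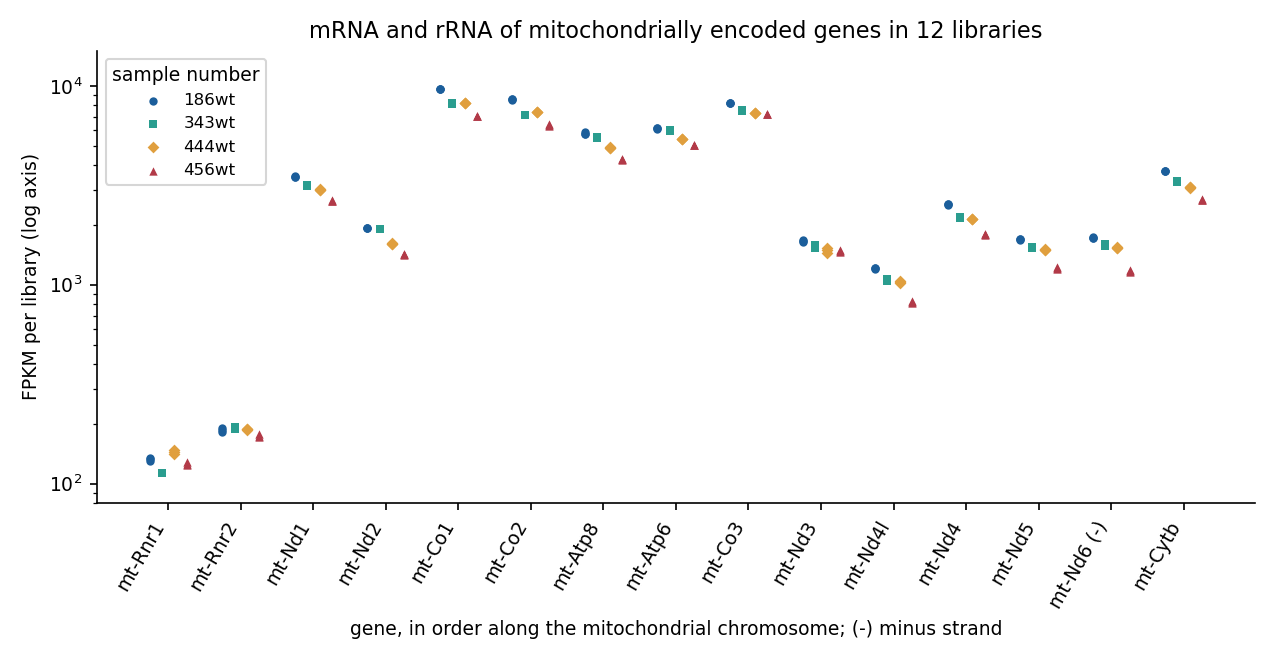
FPKM of the 2 rRNA genes and 13 protein-coding genes in each of the 12 libraries (log axis), in the order of the genes along the chromosome, with the 4 sample numbers in colour. The 3 genes of complex IV and both genes of complex V stand at 4238 FPKM or more, the genes of complex I lie between 812.6 and 3505 FPKM, and the rRNA genes are at 193.1 FPKM or less.

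Levels differed between genes that are transcribed together. By mean FPKM as deposited the order was mt-Co1, mt-Co3, mt-Co2, mt-Atp6, mt-Atp8, mt-Cytb, mt-Nd1, mt-Nd4, mt-Nd2, mt-Nd3, mt-Nd6, mt-Nd5 and mt-Nd4l. These genes held ranks from 1 to 20 in the whole table. With 204 bases, mt-Atp8 is shorter than the mean fragment length that the authors set for RSEM. mt-Nd4l and mt-Nd3, with 297 and 348 bases, are not much longer than it. Their levels against longer genes are therefore uncertain, as are the ratios and complex shares that use them. The places of mt-Nd4l, mt-Atp6 and mt-Atp8 depend on reads shared with nuclear copies, which are described below. With the value of its copy added, mt-Nd4l came to 2056 FPKM, above mt-Nd2 at 1715 FPKM. The whole value of the other copy added to mt-Atp6 gave 7570 FPKM, against 7359 FPKM for mt-Co2. This sum is not the level of mt-Atp6 alone, since 180 bases of that copy match mt-Atp8 and its length differs from that of mt-Atp6. No value was added to mt-Atp8. As deposited, the 13 genes fell into groups: the libraries of mt-Co2 and mt-Atp6, of mt-Atp8 and mt-Cytb, and of mt-Nd1 and mt-Nd4 did not overlap. For mt-Nd5 and mt-Nd4l the means of the numbers lay apart, but single libraries overlapped. The lowest library of mt-Nd5 had 1199.3 FPKM and the highest of mt-Nd4l 1217 FPKM. Other neighbours in the order were not as distinct. The level of mt-Co3 was above that of mt-Co2 in 2 of 4 numbers only, mt-Nd3 was above mt-Nd6 in 1 of 4, and mt-Co1 was above mt-Co3, mt-Nd2 above mt-Nd3 and mt-Nd6 above mt-Nd5 in 3 of 4. Of the summed mRNA level as deposited, complex IV had 46.8 ± 1.13%, complex I 25.2 ± 0.532%, complex V 21.6 ± 0.746% and complex III 6.43 ± 0.180% (SD, n = 4), although complex I has 7 of the 13 genes.

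Complex I, the NADH dehydrogenase, takes electrons from NADH and pumps protons. mt-Nd1 (ENSMUSG00000064341, chrM:2751-3707, plus strand), a subunit next to the site where ubiquinone binds, had 3497, 3139, 3009 and 2639 FPKM in 186wt, 343wt, 444wt and 456wt. mt-Nd2 (ENSMUSG00000064345, chrM:3914-4951, plus strand), one of the antiporter-like subunits that form the proton path, had 1933, 1896, 1607 and 1423 FPKM in 186wt, 343wt, 444wt and 456wt. mt-Nd4 (ENSMUSG00000064363, chrM:10167-11544, plus strand), of the same type, had 2534, 2181, 2138 and 1792 FPKM in 186wt, 343wt, 444wt and 456wt. In all 3 genes each number lay apart from the others, with 186wt highest and 456wt lowest. mt-Nd5 (ENSMUSG00000064367, chrM:11742-13565, plus strand), the longest of these genes and also antiporter-like, had 1692, 1532, 1502 and 1211 FPKM in 186wt, 343wt, 444wt and 456wt. The libraries of its 4 numbers did not overlap either, but 343wt and 444wt were close. The highest and lowest numbers differed by 0.41 (SE 0.0074, limma adjusted p = 2.37e-11) on the log2(FPKM + 0.1) scale for mt-Nd1, and by 0.44 (SE 0.0077, limma adjusted p = 7.83e-12) for mt-Nd2. The difference was 0.50 (SE 0.0079, limma adjusted p = 9.28e-12) for mt-Nd4 and 0.48 (SE 0.0087, limma adjusted p = 2.06e-11) for mt-Nd5.

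The 3 remaining subunits of complex I are small membrane proteins. mt-Nd3 (ENSMUSG00000064360, chrM:9459-9806, plus strand) had 1663, 1553, 1489.6 and 1475 FPKM in 186wt, 343wt, 444wt and 456wt, with the smallest range of the 13 mRNAs. Its libraries overlapped between 343wt and 444wt and between 444wt and 456wt, and the highest number exceeded the lowest by 0.17 (SE 0.020, limma adjusted p = 6.70e-05). mt-Nd6 (ENSMUSG00000064368, chrM:13552-14070, minus strand), the only protein of the minus strand, had 1726, 1579, 1539.9 and 1168 FPKM in 186wt, 343wt, 444wt and 456wt, with 456wt far below the others and no overlap between numbers. Its range of 0.56 (SE 0.011, limma adjusted p = 3.87e-11) was the widest. The level of mt-Nd6 was 0.373 ± 0.0269 of the mean of the 12 plus-strand mRNAs (SD, n = 4), a ratio that was 0.478 when the median of those mRNAs was used instead. Compared with mt-Nd5, which faces it, the ratio was 1.02, 1.03, 1.03 and 0.964 in 186wt, 343wt, 444wt and 456wt. The libraries were made from mRNA and the strand setting is not given, so these ratios need not be those of the RNAs in the cells.

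mt-Nd4l (ENSMUSG00000065947, chrM:9877-10173, plus strand), the last of the small subunits, had 1208, 1052, 1033 and 820.4 FPKM in 186wt, 343wt, 444wt and 456wt, the lowest level of the 13 as deposited. The highest and lowest numbers differed by 0.56 (SE 0.012, limma adjusted p = 8.87e-11), and only the libraries of 343wt and 444wt overlapped. This gene has a copy in the nuclear genome that limits its value. A segment of chromosome 1 (chr1:24618374-24623027 of NCBI build 37, minus strand) matches 4654 aligned bases of the mitochondrial chromosome, from chrM:6390-11042, at 99.94% identity with 2 mismatches and 1 gap, and holds 11 whole mitochondrial genes. Its annotated transcript Gm10222 (chr1:24619243-24619539) has the same 297 bases as mt-Nd4l without a mismatch. The sequence is shown because both genes are the same text. It is the plus strand of chrM:9877-10173, with the bases that mt-Nd4l shares with mt-Nd4 in capitals:
mt-Nd4l: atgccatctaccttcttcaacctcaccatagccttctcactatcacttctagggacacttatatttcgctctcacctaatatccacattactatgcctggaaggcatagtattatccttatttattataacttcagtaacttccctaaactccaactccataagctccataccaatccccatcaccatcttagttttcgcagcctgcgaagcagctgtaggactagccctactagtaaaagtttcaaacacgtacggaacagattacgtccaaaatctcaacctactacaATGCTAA

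The deposited values of Gm10222 and mt-Nd4l were equal in all 12 libraries to the 2 decimals given. RSEM divides reads that match several transcripts equally well, and the alignment used transcripts, so reads of this stretch can be divided between both names and neither value is a separate measurement. Added together they gave 2416, 2103, 2065 and 1641 FPKM in 186wt, 343wt, 444wt and 456wt, which was 0.950 ± 0.0235 of the level of mt-Nd4. In mitochondria mt-Nd4l and mt-Nd4 are known to lie on 1 mRNA. As deposited, mt-Nd4l was 0.475 ± 0.0117 of mt-Nd4 (SD, n = 4). Equal values were rare elsewhere: of 14348 genes that averaged 1 FPKM or more, 50 shared all 12 values with another gene, this pair included.

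**Figure D2:**
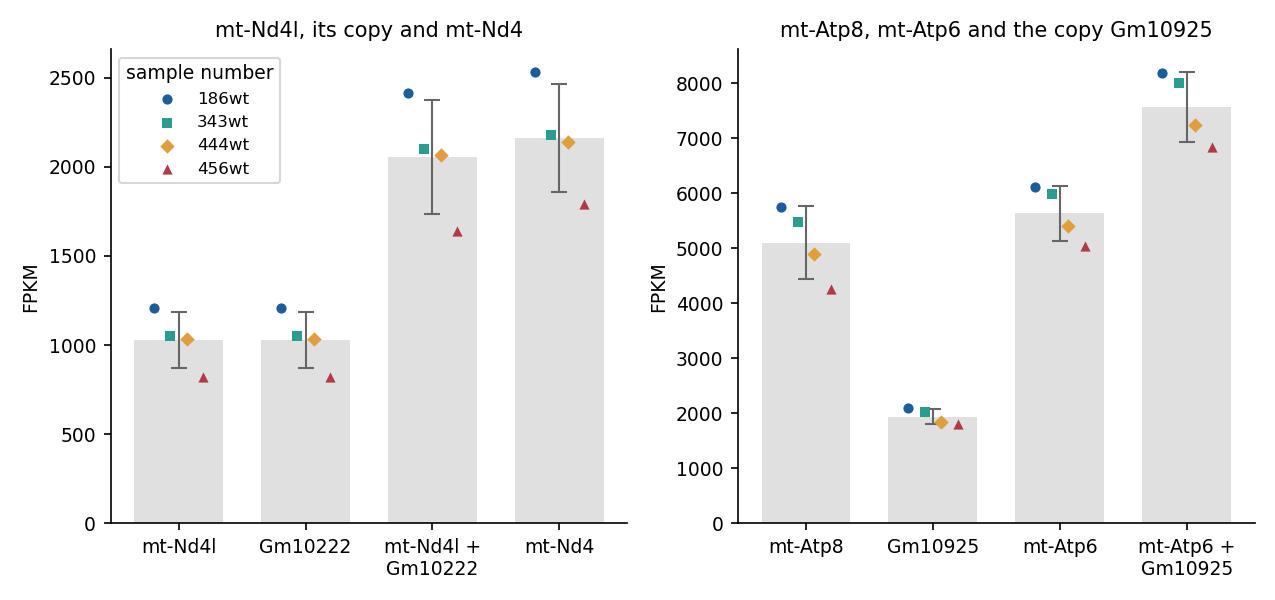
FPKM of mt-Nd4l, its nuclear copy Gm10222, their sum and mt-Nd4 (left), and of mt-Atp8, the nuclear copy Gm10925, mt-Atp6 and the sum of the last 2 (right). Points are the means of the 4 sample numbers, bars their mean and error bars the SD (n = 4), and the sum of mt-Nd4l and Gm10222 comes to 2056 FPKM against 2161 FPKM for mt-Nd4.

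Complex III passes electrons from ubiquinol to cytochrome c, and mt-Cytb (ENSMUSG00000064370, chrM:14145-15288, plus strand) encodes its cytochrome b, which carries the haems and both quinone sites. It had 3726, 3293, 3099 and 2679 FPKM in 186wt, 343wt, 444wt and 456wt, with no overlap between numbers. The range was 0.48 (SE 0.0077, limma adjusted p = 9.28e-12).

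Complex IV, cytochrome c oxidase, had the 3 highest genes of the table. mt-Co1 (ENSMUSG00000064351, chrM:5328-6872, plus strand), the subunit where oxygen is reduced, had 9651, 8141, 8179 and 7059 FPKM in 186wt, 343wt, 444wt and 456wt. mt-Co2 (ENSMUSG00000064354, chrM:7013-7696, plus strand), which accepts electrons from cytochrome c, had 8554, 7141, 7395 and 6347 FPKM in 186wt, 343wt, 444wt and 456wt. In both, 186wt stood highest and 456wt lowest, and 343wt and 444wt lay close together, with overlapping libraries for mt-Co1. mt-Co3 (ENSMUSG00000064358, chrM:8607-9390, plus strand), a core subunit without a metal centre, had 8222, 7520.2, 7298 and 7229 FPKM in 186wt, 343wt, 444wt and 456wt. Its 3 lower numbers were near each other, although their libraries did not overlap. The ranges were 0.45 (SE 0.0054, limma adjusted p = 1.30e-12) for mt-Co1, 0.43 (SE 0.0069, limma adjusted p = 9.28e-12) for mt-Co2 and 0.19 (SE 0.0050, limma adjusted p = 2.60e-10) for mt-Co3. The ratio of mt-Co3 to mt-Co1 was therefore not constant and was 0.852, 0.924, 0.892 and 1.02 in 186wt, 343wt, 444wt and 456wt.

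Complex V, the ATP synthase, uses the proton gradient to make ATP. mt-Atp6 (ENSMUSG00000064357, chrM:7927-8607, plus strand), the subunit that forms the proton path beside the rotor, had 6104, 5984, 5396 and 5047 FPKM in 186wt, 343wt, 444wt and 456wt. mt-Atp8 (ENSMUSG00000064356, chrM:7766-7969, plus strand), a short membrane subunit, had 5757, 5486, 4899.9 and 4267 FPKM in 186wt, 343wt, 444wt and 456wt. They are also known to lie on 1 mRNA and overlap by the 43 bases shown above, and for both the libraries of the 4 numbers were apart, in the same order. The ranges were 0.27 (SE 0.0073, limma adjusted p = 1.89e-10) and 0.43 (SE 0.0093, limma adjusted p = 5.14e-11). The ratio of mt-Atp8 to mt-Atp6 was 0.943, 0.917, 0.908 and 0.846 in 186wt, 343wt, 444wt and 456wt, lower in 456wt than in the other numbers. These genes too have reads in common with a nuclear copy. Gm10925, in the same segment of chromosome 1, has an exon of 588 bases within mt-Atp6 (chr1:24620814-24621401) and one of 184 bases across mt-Atp8 and mt-Atp6 (chr1:24621444-24621627), both without a mismatch, and had 1937 ± 141 FPKM (SD, n = 4), or 0.344 ± 0.00787 of mt-Atp6. Of the 5 nuclear genes with exons that match mitochondrial genes over at least 100 bases at 95% identity or more, the other 3 (Gm13339, Gm13340 and Gm13341 on chromosome 2, at 97.4% identity) had means of 0.0675, 0.238 and 0.0975 FPKM.

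The rRNA genes were far below the mRNAs. The libraries were made from mRNA, so these values describe what rRNA remained in them and not its abundance in the cells. mt-Rnr1 (ENSMUSG00000064337, chrM:70-1024, plus strand), which encodes the rRNA of the small ribosomal subunit, had 133, 113, 144 and 126 FPKM in 186wt, 343wt, 444wt and 456wt. mt-Rnr2 (ENSMUSG00000064339, chrM:1094-2675, plus strand), for the large subunit, had 186, 189.7, 188 and 175 FPKM in 186wt, 343wt, 444wt and 456wt. The highest rRNA value in any library was 193.1 FPKM and the lowest mRNA value 812.6 FPKM. The 2 genes did not follow the order of the mRNAs: mt-Rnr1 was highest in 444wt and lowest in 343wt with no overlap, by 0.35 (SE 0.021, limma adjusted p = 4.74e-07), and mt-Rnr2 had 3 overlapping numbers and a lower 456wt, by 0.11 (SE 0.019, limma adjusted p = 0.00125). Without 456wt the difference of mt-Rnr2 did not pass the threshold (limma adjusted p = 0.443). The ratio of mt-Rnr2 to mt-Rnr1 was 1.40, 1.68, 1.30 and 1.39 in 186wt, 343wt, 444wt and 456wt.

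Few fragments were assigned to tRNA genes, which are 59 to 75 bases long, shorter than a single read of these libraries. Of the 22 genes, 12 are listed at 0 in all 12 libraries: mt-Tf, mt-Tv, mt-Tq, mt-Tm, mt-Tw, mt-Ty, mt-Td, mt-Tg, mt-Tr, mt-Th, mt-Ts2 and mt-Tp. Only 47 of 264 values were above 0, from 0.17 to 15.57 FPKM. Other genes of this length range that were above 0 in at most 2 libraries give the scale of such values, since the lowest value of theirs in a library was 2.32 to 3.26 FPKM. The 3 genes with values above 0 in 11 of 12 libraries are shown, from NCBI build 37 on the strand of the gene, for mt-Tl1 (chrM:2676-2750, plus strand), mt-Ts1 (chrM:6870-6938, minus strand) and mt-Te (chrM:14071-14139, minus strand). The capitals in mt-Ts1 are the bases that lie opposite the stop codon of mt-Co1:
mt-Tl1: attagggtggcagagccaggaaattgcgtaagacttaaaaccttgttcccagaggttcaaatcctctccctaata
mt-Ts1: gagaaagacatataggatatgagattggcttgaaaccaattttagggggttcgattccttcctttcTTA
mt-Te: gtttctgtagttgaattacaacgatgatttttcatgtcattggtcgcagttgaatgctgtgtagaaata

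mt-Tl1, a leucine tRNA, lies between mt-Rnr2 and mt-Nd1 with no base between them, and had 6.80, 8.03, 9.16 and 0.857 FPKM in 186wt, 343wt, 444wt and 456wt. The 3 libraries of 456wt, at 0, 2.4 and 0.17 FPKM, were all below the 9 others, which ranged from 4.43 to 13.97 FPKM. It was the only tRNA gene of 10 tested that passed the threshold, with 4.49 (SE 0.89, limma adjusted p = 0.00276) between 444wt and 456wt. The size depended on the pseudocount, with 2.67 at a pseudocount of 1 FPKM and 5.80 at 0.01 FPKM, and without 456wt the gene did not pass (limma adjusted p = 0.558). mt-Ts1, a serine tRNA on the strand opposite to mt-Co1, had 12.8, 5.19, 7.44 and 9.21 FPKM in 186wt, 343wt, 444wt and 456wt. mt-Te, for glutamic acid, next to mt-Nd6 on the minus strand, had 8.81, 3.56, 4.88 and 9.74 FPKM in 186wt, 343wt, 444wt and 456wt. The libraries of both overlapped between most numbers, and neither passed the threshold (limma adjusted p = 0.431 for mt-Ts1 and 0.165 for mt-Te). Leaving out 1 library moved them past it, which was 444wt replicate 3 for mt-Ts1 (adjusted p = 0.0252 in limma) and 343wt replicate 1 for mt-Te (0.0220). The other 7 genes, mt-Ti, mt-Ta, mt-Tn, mt-Tc, mt-Tk, mt-Tl2 and mt-Tt, for isoleucine, alanine, asparagine, cysteine, lysine, leucine and threonine, were above 0 in 1 to 4 libraries, at most at 4.43 FPKM.

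**Figure D3:**
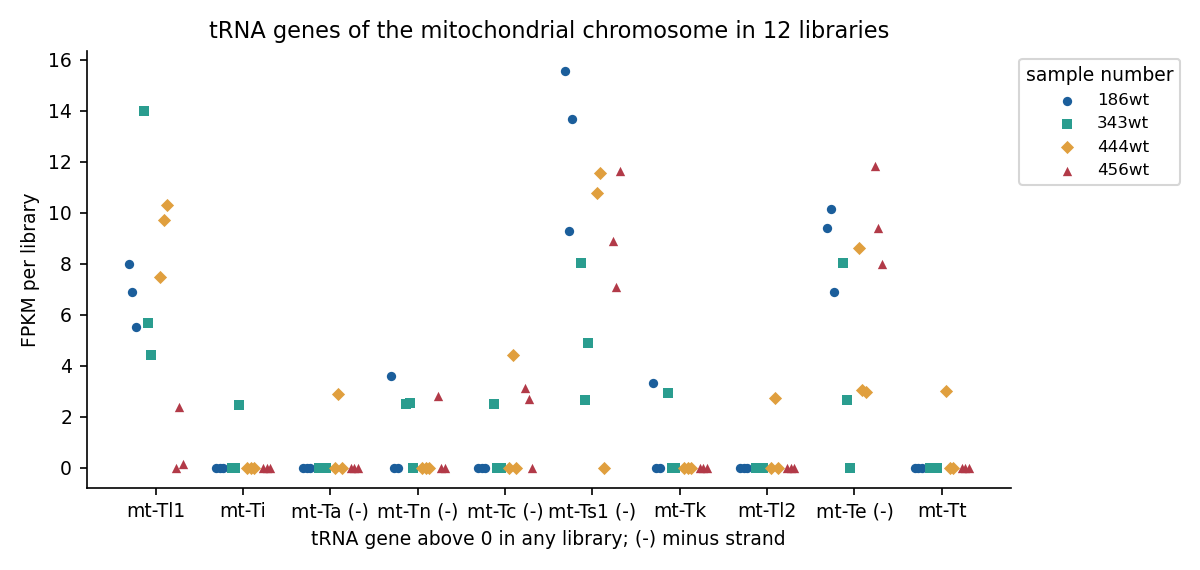
FPKM in each library of the 10 tRNA genes with any value above 0, in the order of the genes along the chromosome, with the 4 sample numbers in colour and the 3 libraries of a number side by side. mt-Tl1, mt-Ts1 and mt-Te reach 8 FPKM or more, and the others stay at or below 4.43 FPKM.

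The comparison the design allows asks whether the 4 samples, of 1 strain and age, differ in these genes. All 13 mRNAs were higher in 186wt than in the other numbers and lower in 456wt, by 0.17 to 0.56 on the log2(FPKM + 0.1) scale, and 343wt and 444wt lay between them. All 13 differed between the 4 numbers in an F-test (limma, Benjamini-Hochberg adjustment over all 20795 genes tested), as did both rRNA genes and mt-Tl1, which makes 16 of the 25 members that passed the filter of a mean of 0.1 FPKM. The 12 members that did not pass the filter are the tRNA genes listed at 0. Over all genes tested, 58.2% differed in this way. At high levels nearly every gene did, namely 96.2% of 720 genes that averaged 100 FPKM or more and 100% of 23 genes that averaged 1000 FPKM or more, 13 of which are the mitochondrial mRNAs. The 23 genes also include the nuclear copies Gm10222 and Gm10925. The count of called members is thus near that of other genes at their level, and the data speak to the order and size of the differences.

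Between pairs of numbers, all 13 mRNAs were higher in 186wt than in 343wt (median difference 0.14), in 444wt (0.22) and in 456wt (0.44), and higher in 343wt than in 456wt (0.28). Over all genes tested, 12.4%, 16.1%, 15.3% and 13.9% of genes were called higher in these directions. Of the 13, 11 were higher in 444wt than in 456wt (median 0.21, 14.1% of all genes), and mt-Co3 and mt-Nd3 did not pass the threshold, each with a difference of 0.014. Between 343wt and 444wt, 10 were higher in 343wt (17% of all genes), mt-Co2 was higher in 444wt (29.3%), and mt-Co1 and mt-Nd4l differed by -0.0068 and 0.026 without passing it. Over the 13 mRNAs and 2 rRNAs, 83 of 90 such pairs passed the threshold, compared with 37.2% over all genes and 92% over the genes that averaged 1000 FPKM or more. The libraries did not overlap in 83 of the 90, compared with 47.4% over all genes and 92.8% over the genes of at least that level. The genes of that level include the 13 mRNAs themselves and the nuclear copies Gm10222 and Gm10925. The shares of 92% and 92.8% are thus in part the members compared with themselves.

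The median of all genes tested also shifted between numbers, from -0.14 for 343wt minus 444wt to 0.02 for 186wt minus 343wt, and the order of the mitochondrial mRNAs depends in part on the scale. When libraries were rescaled by the median ratio over genes, the difference between 186wt and 456wt had a median of 0.52 over the 13 mRNAs in place of 0.44. On that scale mt-Nd2 and mt-Atp6 were highest in 343wt, mt-Co3 and mt-Nd3 were lowest in 444wt, and the other 9 kept 186wt highest and 456wt lowest. The difference of mt-Co2 between 343wt and 444wt changed its sign there. Rescaling to equal totals over all genes, or over all genes outside the members, left 186wt highest and 456wt lowest for all 13.

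**Figure D4:**
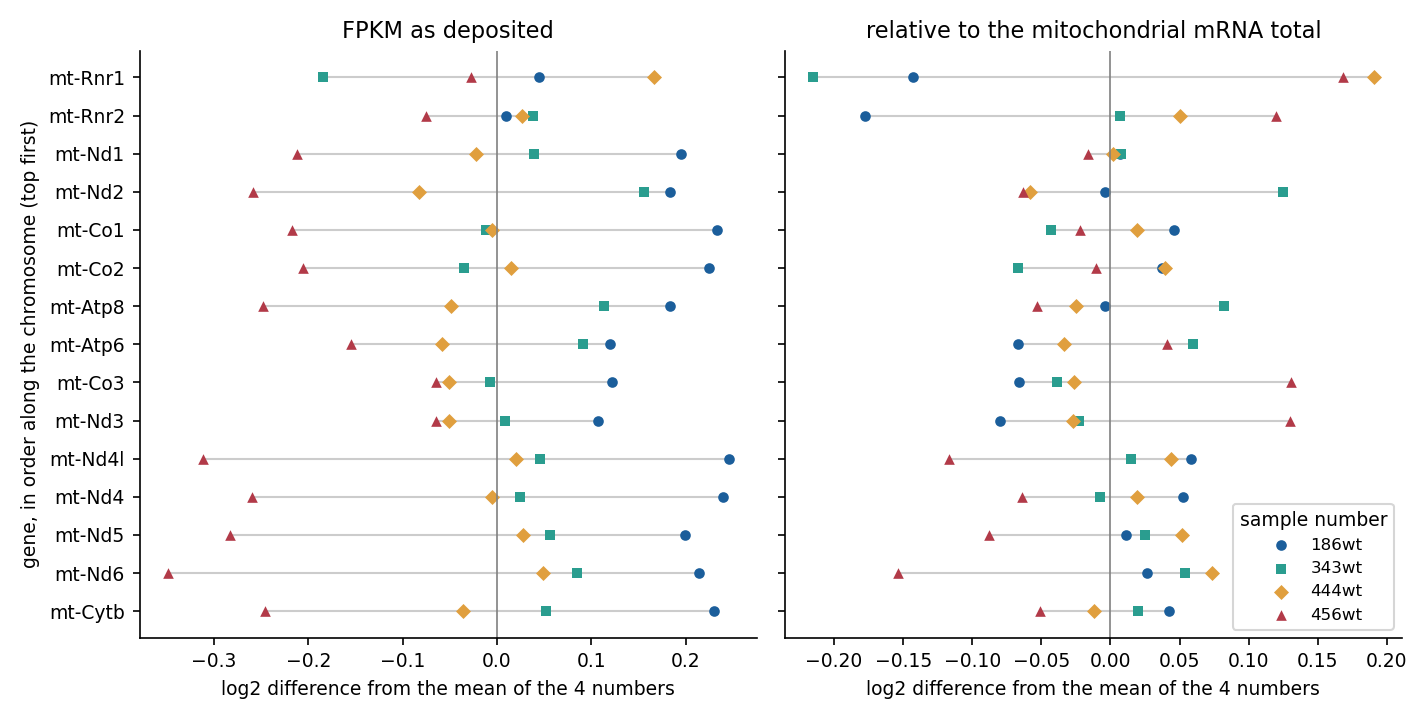
Log2 difference of each sample number from the mean of the 4 numbers for the 2 rRNA genes and 13 mRNAs, in the order of the genes along the chromosome from top to bottom, as deposited (left) and after division by the summed level of the 13 mRNAs of the library (right). As deposited, 186wt is highest and 456wt lowest for all 13 mRNAs, which holds for 9 of them when libraries are rescaled by the median ratio over genes. On the right mt-Co3 and mt-Nd3 are highest in 456wt, while mt-Nd1, mt-Nd2, mt-Atp8, mt-Nd4l, mt-Nd4, mt-Nd5, mt-Nd6 and mt-Cytb are lowest there.

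The mRNAs did not move by the same amount. To compare them with each other, each library was divided by the sum of its 13 mRNAs, a scale on which an increase of 1 gene lowers the others and which shows unequal change only. On this scale all 15 rRNA and mRNA members passed the threshold, as did 68.8% of all genes, and the ranges were smaller, from 0.024 for mt-Nd1 to 0.23 for mt-Nd6 among the mRNAs. The genes from mt-Nd4l to mt-Cytb, which follow each other on the chromosome, were lowest in 456wt, mt-Nd6 by 0.23 (SE 0.011, limma adjusted p = 1.48e-08), mt-Nd4l by 0.18 (SE 0.013, limma adjusted p = 5.94e-07) and mt-Nd5 by 0.14 (SE 0.0079, limma adjusted p = 1.14e-07). Being lowest there was not particular to this stretch. mt-Nd1, mt-Nd2 and mt-Atp8, which lie elsewhere on the chromosome, were also lowest in 456wt, with mt-Atp8 by 0.14 below 343wt. mt-Co3 and mt-Nd3, the 2 mRNA genes just before mt-Nd4l, were highest in 456wt and lowest in 186wt, by 0.20 (SE 0.0053, limma adjusted p = 2.30e-10) and 0.21 (SE 0.019, limma adjusted p = 5.64e-06). mt-Nd2 stood out in 343wt, where it was highest, by 0.19 (SE 0.0073, limma adjusted p = 2.97e-09) over 456wt. mt-Atp8 and mt-Atp6 were also highest in 343wt, and mt-Co1 and mt-Co2 were lowest there. mt-Nd1 stayed within 0.024 (SE 0.0069, limma adjusted p = 0.0245) and did not pass without 456wt (limma adjusted p = 0.763), without any 1 of its 3 libraries (0.0511 to 0.108) or without a filter on low values (0.226). mt-Nd3 did not pass without 456wt (limma adjusted p = 0.0508). Both rRNAs were higher in 456wt than in 186wt relative to the mRNAs, mt-Rnr2 by 0.30 (limma adjusted p = 1.63e-07) and mt-Rnr1 by 0.31 (3.06e-07).

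The nuclear genes for subunits of the same complexes were measured in the same libraries. Of 87 such genes, cytochrome c included, all of which passed the filter, 74 differed between numbers (85.1%, against 58.2% of all genes), with a median range of 0.24 against 0.55 over all genes. Their median level was 86.3 FPKM, and the share called rises with level. Of the genes that averaged 100 FPKM or more, 96.2% differed, with a median range of 0.36. The count is therefore not read as an excess. Between 186wt and 456wt, 58 were lower in 186wt and 6 higher, with a median of -0.19, whereas 25.3% of all genes were lower and 15.3% higher, with a median of -0.08. The mitochondrial mRNAs, all higher in 186wt, and most nuclear subunits therefore had opposite signs in this pair. When libraries were rescaled by the median ratio, 45 nuclear genes were lower and 7 higher. By complex as listed, 23 of 37 nuclear genes of complex I were lower in 186wt and 2 higher. Of complex IV, 12 of 18 were lower and 1 higher, and of complex V 13 of 17 were lower and 2 higher. Ndufa4, counted in complex I by its name, is among the lower genes. Atpif1, an inhibitor of the ATP synthase and not a subunit, is counted in complex V and is among the higher genes. In complex III 6 of 9 and in complex II, which has no mitochondrially encoded subunit, 3 of 4 were lower, and none was higher. A test of the difference between the mitochondrial and the nuclear group was not made.

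**Figure D5:**
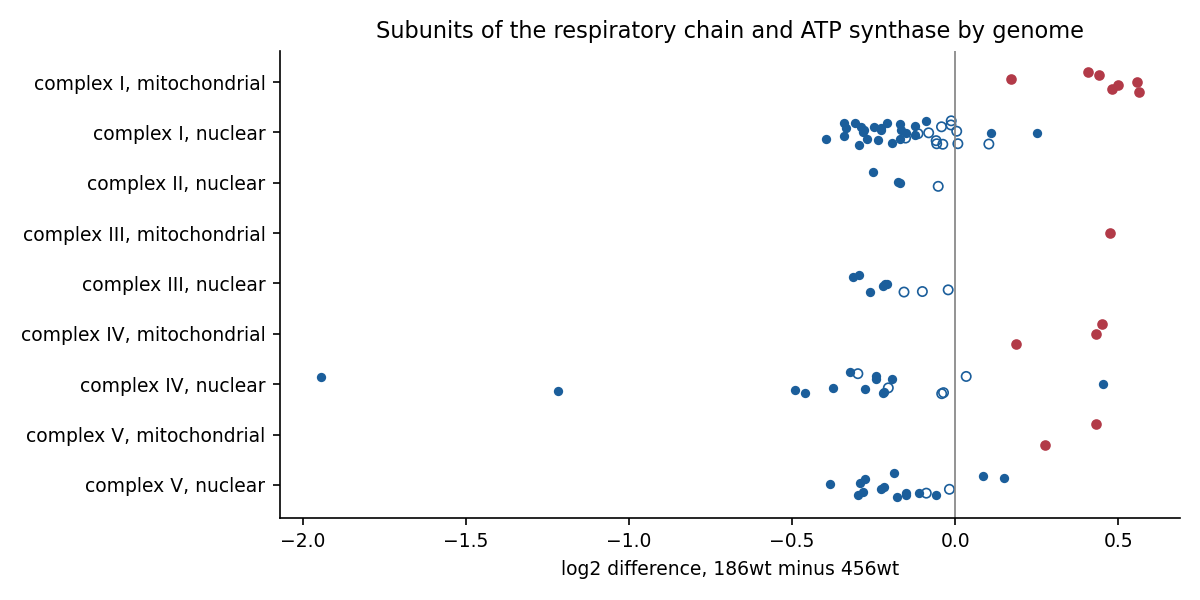
Log2 difference of FPKM + 0.1 between 186wt and 456wt for each mitochondrially encoded (red) and nuclear (blue) gene listed under complexes I to V. There is 1 point per gene, with open points for genes that did not pass the threshold in this pair and vertical scatter for display only. The 13 mitochondrial genes lie between 0.17 and 0.56, and 58 of 87 nuclear genes, cytochrome c included in the count but not in the plot, were called lower in 186wt.

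The 5 most abundant nuclear genes were far below the mitochondrial ones. Atp5b, the catalytic beta subunit of the ATP synthase, had 378, 417, 403 and 428 FPKM in 186wt, 343wt, 444wt and 456wt. Cox4i1, a structural subunit of complex IV, had 309, 324, 369.6 and 374 FPKM in 186wt, 343wt, 444wt and 456wt. Both were lowest in 186wt and highest in 456wt, by 0.18 (SE 0.012, limma adjusted p = 1.09e-06) and 0.28 (SE 0.022, limma adjusted p = 1.11e-06). Cox6a1 and Atp5a1, of complexes IV and V, followed the same order, with means of 273 and 234 FPKM and ranges of 0.24 (SE 0.020, limma adjusted p = 4.46e-06) and 0.15 (SE 0.016, limma adjusted p = 8.91e-05). Cox6c had 215 FPKM and a range of 0.11 (SE 0.031, limma adjusted p = 0.0290), with 343wt highest and 444wt lowest.

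The 4 testis forms of these proteins that were examined by name all differed between numbers. Cox6b2, a testis form of a complex IV subunit, had 22.5, 16.7, 24.4 and 31.0 FPKM in 186wt, 343wt, 444wt and 456wt, with 0.89 (SE 0.070, limma adjusted p = 5.06e-06) between 456wt and 343wt. Cox7b2, also a testis form, had 14.2, 15.9, 18.7 and 19.7 FPKM in 186wt, 343wt, 444wt and 456wt, by 0.49 (SE 0.12, limma adjusted p = 0.0154). Cox8c, another testis form, had 8.27, 7.89, 5.59 and 10.8 FPKM in 186wt, 343wt, 444wt and 456wt, with 0.93 (SE 0.12, limma adjusted p = 0.000234) between 456wt and 444wt. All 3 were highest in 456wt. Cyct, the testis cytochrome c, had 12.8, 11.8, 19.6 and 16.7 FPKM in 186wt, 343wt, 444wt and 456wt and was highest in 444wt, by 0.74 (SE 0.081, limma adjusted p = 3.34e-05). The 3 nuclear subunit genes with the largest differences were low. Cox4i2, a form known from lung, had 1.22, 1.29, 1.2 and 2.92 FPKM in 186wt, 343wt, 444wt and 456wt and passed the threshold (limma adjusted p = 0.000493). Cox8b and Cox6a2, known from muscle, had means of 0.107 and 0.212 FPKM and did not pass it (adjusted p = 0.0509 and 0.0977 in limma).

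The nuclear genes that act in the expression and upkeep of mitochondrial DNA moved in both directions. Of 62 genes for its transcription, replication, RNA processing and translation, 38 differed between numbers (61.3%, against 58.2% of all genes). Their median level was 14.5 FPKM, and in a fit of the genes that averaged 1 FPKM or more 77.6% of all genes differed. Between 186wt and 456wt, 15 were lower and 6 higher in 186wt, and when libraries were rescaled by the median ratio 10 were lower and 11 higher. Polrmt, the mitochondrial RNA polymerase, had 25.9, 24.5, 29.1 and 30.1 FPKM in 186wt, 343wt, 444wt and 456wt, and Tfam, which packs the DNA and starts transcription, had 22.5, 23.7, 26.4 and 25.6 FPKM in 186wt, 343wt, 444wt and 456wt. Both had lower values in 186wt and 343wt than in 444wt and 456wt, and differed by 0.29 (SE 0.081, limma adjusted p = 0.0240) and 0.23 (SE 0.064, limma adjusted p = 0.0282) between the extremes. Tfb2m, the other initiation factor, had 17.7, 18.1, 15.99 and 15.4 FPKM in 186wt, 343wt, 444wt and 456wt and did not pass the threshold (limma adjusted p = 0.0864).

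Lrpprc and Slirp (listed as 1810035L17Rik) encode partners that bind and stabilise mitochondrial mRNAs. Lrpprc had 35.1, 37.8, 43.4 and 41.5 FPKM in 186wt, 343wt, 444wt and 456wt, a range of 0.31 (SE 0.033, limma adjusted p = 3.79e-05). Slirp had 32.0, 30.9, 30.2 and 31.5 FPKM in 186wt, 343wt, 444wt and 456wt and did not pass the threshold (limma adjusted p = 0.859). Lrpprc was lowest in 186wt, where the mitochondrial mRNAs were highest. Among the 5 genes of this list with the largest differences, Mrrf, which recycles ribosomes, had 8.93, 11.6, 15.1 and 14.9 FPKM in 186wt, 343wt, 444wt and 456wt, a range of 0.75 (SE 0.17, limma adjusted p = 0.00683). Slc25a4, the ADP/ATP carrier listed here for its role in DNA maintenance, had 70.1, 75, 52.4 and 69.7 FPKM in 186wt, 343wt, 444wt and 456wt, a range of 0.52 (SE 0.039, limma adjusted p = 2.06e-06). Dna2, a nuclease and helicase, had 5.81, 5.60, 7.93 and 7.78 FPKM in 186wt, 343wt, 444wt and 456wt, a range of 0.49 (SE 0.056, limma adjusted p = 1.20e-05). Polg2, which helps copy mitochondrial DNA, had a mean of 6.03 FPKM and did not pass (limma adjusted p = 0.0784). The last, 1700029F12Rik, had a mean of 0.156 FPKM and did not pass either (limma adjusted p = 0.0708). It was listed for Mgme1 by an alias that was not checked, so its value is not read as the level of Mgme1.

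Markers of other cell types moved between the same samples. The Sertoli markers, all 9 above 1 FPKM, were higher in 186wt and 343wt than in 444wt and 456wt, and the myoid markers, all 6 above 1 FPKM, were highest in 456wt, where the mitochondrial mRNAs were lowest. The 6 erythroid markers, 5 of them above 1 FPKM, summed to 30.3, 77.9, 94.9 and 173.4 FPKM in 186wt, 343wt, 444wt and 456wt. The Leydig, macrophage and endothelial lists of 6 genes each summed to at most 110.5, 33.3 and 37.9 FPKM in any number, and the 8 spermatogonial markers to between 485.6 and 693 FPKM. No marker of these lists was at 0 in all libraries. The part of these cells in the mitochondrial differences was not tested.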

How the data were processed

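RNA was extracted from B6 germ cells enriched at 12 dpp, and random-primed libraries were made from its mRNA. The authors aligned the reads with Bowtie 0.12.9 to the transcripts of NCBI build 37, kept the best matches with fewer than 2 mismatches, and deposited FPKM per gene and library from RSEM 1.2.8, rounded to 2 decimals. Counts are not used here, so no count model was run, and the depth of 12.9 to 17.6 M (mega) fragments per library is an estimate. Since the depth rests on this estimate, no interval of counting error is given.

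Genes that averaged 0.1 FPKM or more were tested on log2(FPKM + 0.1) with limma 3.58.1 in R 4.3.3 (lmFit, eBayes with trend) on all 12 libraries. An F-test compared the 4 sample numbers, with Benjamini-Hochberg adjustment over all genes, and contrasts compared the 6 pairs, adjusted over genes and pairs together. A fold on this scale understates the change of low genes. A further fit divided each library by its mitochondrial mRNA total. The script was tested on simulated data. Shares and ratios were computed per library and have no test. Positions and sequences are from NCBI build 37 with GENCODE M1, and nuclear copies were found with blastn 2.17.0 (at least 100 bases and 95% identity). Python 3.11.15 (numpy 2.4.6, pandas 2.3.3, scipy 1.17.1) gave the remaining values, and matplotlib 3.10.9 the plots.

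Named were every member, the 5 highest and the 3 most variable nuclear subunits with the testis forms Cox6b2, Cox7b2, Cox8c and Cyct, and of the expression machinery Polrmt, Tfam, Tfb2m, Lrpprc, Slirp and the 5 most variable genes. The other genes named are the nuclear copies. The members, gene lists and markers were chosen with earlier results of these data known. The alternatives were other pseudocounts, filters and scalings, leaving out each library and each sample number, and the library number as a block. Adding the nuclear copies to mt-Nd4l and mt-Atp6 was chosen after seeing the data.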

Additional observations from a re-analysis of the deposited data

Results flagged for a closer look

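In 38 values, namely the level of each member and 1 ratio, the 4 sample numbers were compared by Dixon's ratio, the gap between the highest or lowest number and its neighbour divided by the whole range. In 5 of the 38 a number stood apart at the 95% level, a level that chance passes in about 1 of 20 groups. This count cannot be read against that rate, since 12 of the values are of tRNA genes at 0 throughout, which have no range, and 4 of the 5 come from a single library above 0, which gives a ratio of 1 by construction. The tRNA genes mt-Ti (0.817 FPKM in 343wt), mt-Ta (0.960 FPKM in 444wt), mt-Tl2 (0.920 FPKM in 444wt) and mt-Tt (1.00 FPKM in 444wt) were above 0 in 1 library each and listed at 0 in all others. None of these 4 passed the test between numbers (limma adjusted p = 0.415 to 0.421). The ratio of mt-Nd6 to mt-Nd5, the pair that faces each other on opposite strands, was 0.964 in 456wt and between 1.02 and 1.03 in the other numbers. Single libraries ranged from 0.957 to 1.04. The causes were not tested.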

How the results depend on the processing

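The count of 16 members that differed between numbers ranged from 14 to 17 when a sample number was left out, with 14 without 456wt, where mt-Tl1 and mt-Rnr2 no longer passed the threshold. It was 16 or 17 without any single library and 16 under each other pseudocount, filter and scaling and with the nuclear copies added. On the scale of the mitochondrial mRNA total it ranged from 13 to 17. The 86 pairs of numbers called over members became 39 to 47 when a number was left out, since 3 of the 6 pairs then remain, 84 to 86 without single libraries and 80 to 89 otherwise. The ratio of mt-Nd6 to the other mRNAs was 0.478 with their median in place of their mean (0.373). The largest difference of a gene has no value when its highest or lowest number is left out. Of the 345 other values for the 13 mRNAs and 2 rRNAs as deposited, all kept their direction and call, and of 315 relative values 310 did. These values compare only the numbers that were highest and lowest in the main fit. Of 90 differences between pairs of numbers, rescaling by the median ratio over genes changed the sign of 7, 3 of which had passed the threshold. The 3 were mt-Nd2 and mt-Atp6 between 186wt and 343wt and mt-Co2 between 343wt and 444wt. In the F-test without 456wt, mt-Rnr2 as deposited (limma adjusted p = 0.443) and, on the relative scale, mt-Nd1 (0.763) and mt-Nd3 (0.0508) did not pass. The other 5 of the 315 values were of mt-Nd1, whose range of 0.024 on this scale did not pass without a filter on low values (limma adjusted p = 0.226) or without any of the 456wt libraries (0.0511 to 0.108), and was reversed, at -0.033, when scaled to the median ratio of the mRNAs (0.00465). The cause was not tested. Between 68 and 75 nuclear subunits (74 as reported) and between 30 and 39 machinery genes (38 as reported) differed under the other settings, and 61 to 69 and 26 to 35 when a number was left out.

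With the library number as a replicate block, 16 members, 86 pairs, 72 nuclear subunits and 37 machinery genes were called, and 11774 genes in all in place of 12107. Libraries of the same library number correlated in their deviations at -0.065 to 0.13, with 1 of 18 pairs above 0.1, so the numbers were not taken to pair the libraries. For 3 of 12 libraries the closest library of another sample carried the same library number.

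Of the tRNA values, 47 of 264 were above 0, and the part of depth in this was not tested. The stretches of mt-Nd4l, mt-Atp8 and mt-Atp6 that the copies on chromosome 1 share without a mismatch cannot be told apart from them at any depth.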
